A study of Mus musculus with 6 samples.

Results

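Fatty acid binding proteins were followed in the inguinal white fat of wild-type mice (WT) and of mice without Naa10 (Naa10-KO) through every probe set that the array annotation gives to exactly one of Fabp1, Fabp2, Fabp3, Fabp4, Fabp5 or Fabp7. These were 12 probe sets of 6 genes, out of 45037 tested (and 6 of the 18193 genes that those name): 4 for Fabp4, 2 each for Fabp1, Fabp3 and Fabp5, and 1 each for Fabp2 and Fabp7. Probe sets of 1 gene read the same RNA and are not replicates of each other.

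Fatty acid binding proteins are small cytosolic carriers. Each folds into a barrel that holds a fatty acid away from water and hands it on to membranes, lipid droplets, mitochondria, peroxisomes or nuclear receptors. Fabp4 is the main carrier of adipocytes and binds hormone-sensitive lipase, Fabp5 is the carrier of skin that adipocytes and macrophages also make, and Fabp3 is the carrier of heart, skeletal muscle and cold-activated brown fat. Fabp1, Fabp2 and Fabp7 belong mainly to liver, small intestine and brain.

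All 6 mice were male, started a diet with 60% of calories from fat at 6 weeks of age, ate it for 15 weeks, and were then kept at 4 °C for 4 h before the inguinal fat, a subcutaneous depot in which beige adipocytes form, was removed. Both genotypes had diet and cold, with 3 WT and 3 Naa10-KO mice and 1 Affymetrix Mouse Genome 430 2.0 array per mouse. The labels name the knockout only as Naa10-KO, so neither the allele nor the tissues that lack the gene can be stated. Naa10 is the enzyme subunit that acetylates the amino end of newly made proteins. No probe set carried the name Naa10, and the genotype labels were not checked against that RNA.

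The authors deposited log2 signals, which were used without further scaling. The median of all values, 5.86, served as a mark for low signal, because detection calls were not used. The fat identity of the tissue was borne out on all 6 arrays, with Adipoq, the adipocyte hormone adiponectin, between 15.46 and 15.81 and Lep, leptin, between 14.44 and 15.12. Genotypes were compared probe set by probe set in limma, with p-values adjusted by the Benjamini-Hochberg method over all 45037 probe sets and 0.05 as the threshold. A positive difference means a higher log2 signal in Naa10-KO.

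Fabp3 was the carrier that differed most between the genotypes, with a 33.1-fold higher mean in Naa10-KO fat at its brighter probe set. Both probe sets of Fabp5, which read the same RNA, were lower in all Naa10-KO arrays than in all WT arrays, by 0.56 and 0.99 on average. Of all probe sets, 7.82% were lower without overlap. Fabp4 differed by 0.63 or less at each of 4 probe sets, and Fabp1, Fabp2 and Fabp7 lay at low signal in both genotypes. None of the 12 probe sets passed the threshold, as 0 of the 45037 probe sets did in this limma fit (0% called higher and 0% called lower), although 3362 had an unadjusted p under 0.05. Fabp3 had the smallest unadjusted p of all probe sets tested (4.36e-06 in limma).

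**Figure D1:**
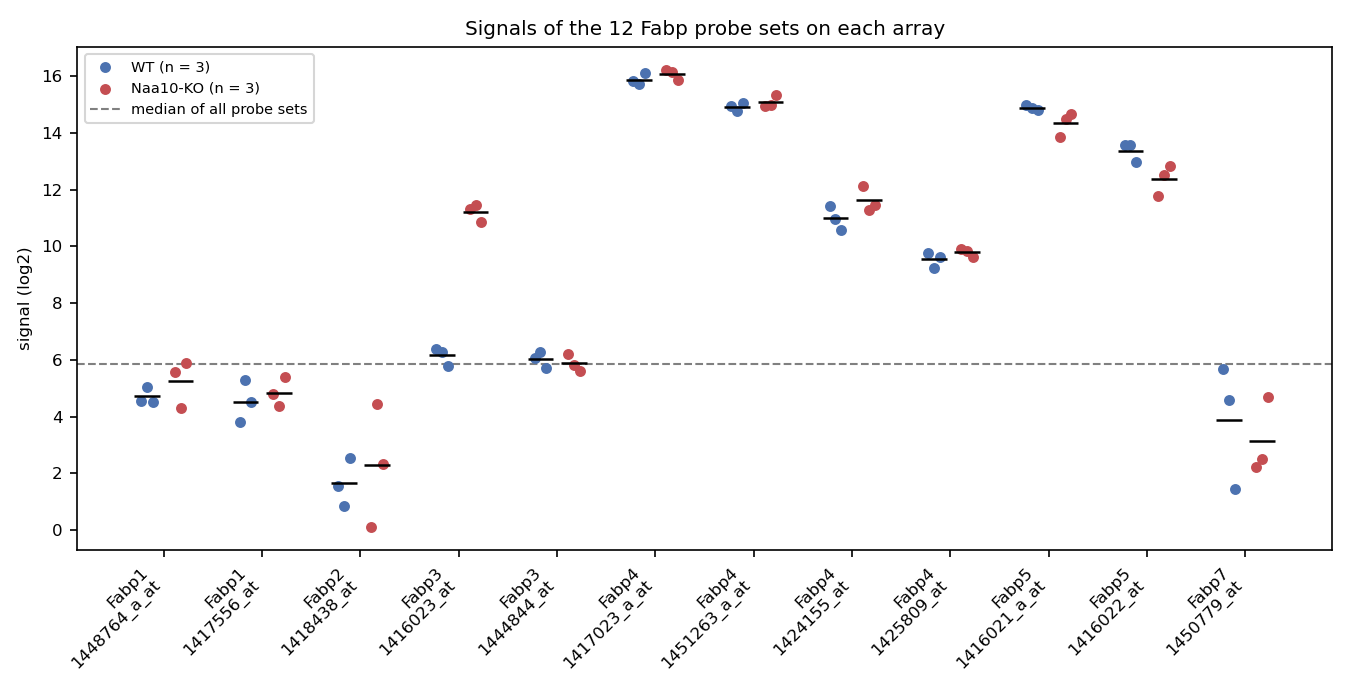
Log2 signal (vertical axis) of the 12 Fabp probe sets on each of 3 WT arrays (blue) and 3 Naa10-KO arrays (red). Black bars are group means and the dashed line is the median of all probe sets, 5.86. The groups separate widely at Fabp3 probe set 1416023_at only, while Fabp4 and Fabp5 lie high on all arrays and Fabp1, Fabp2 and Fabp7 low.

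Of the 12 probe sets, means were higher in Naa10-KO fat for 8 and lower for 4, and the median difference was 0.22 against -0.0026 over all probe sets. Their median absolute difference was 0.54, against 0.36 over the array. Groups of arrays did not overlap for 3 of the 12, 1 higher and 2 lower in Naa10-KO, whereas 8.09% of all probe sets were higher without overlap and 7.82% were lower. An unadjusted p under 0.05 was reached by 2 of the 12, Fabp3 1416023_at and Fabp5 1416022_at, beside 3.5% of all probe sets in the higher direction and 3.96% in the lower one. Signals were above the low mark on all 6 arrays for the 6 probe sets of Fabp4 and Fabp5, below it on all 6 for 3 probe sets, and on both sides for the remaining 3.

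**Figure D2:**
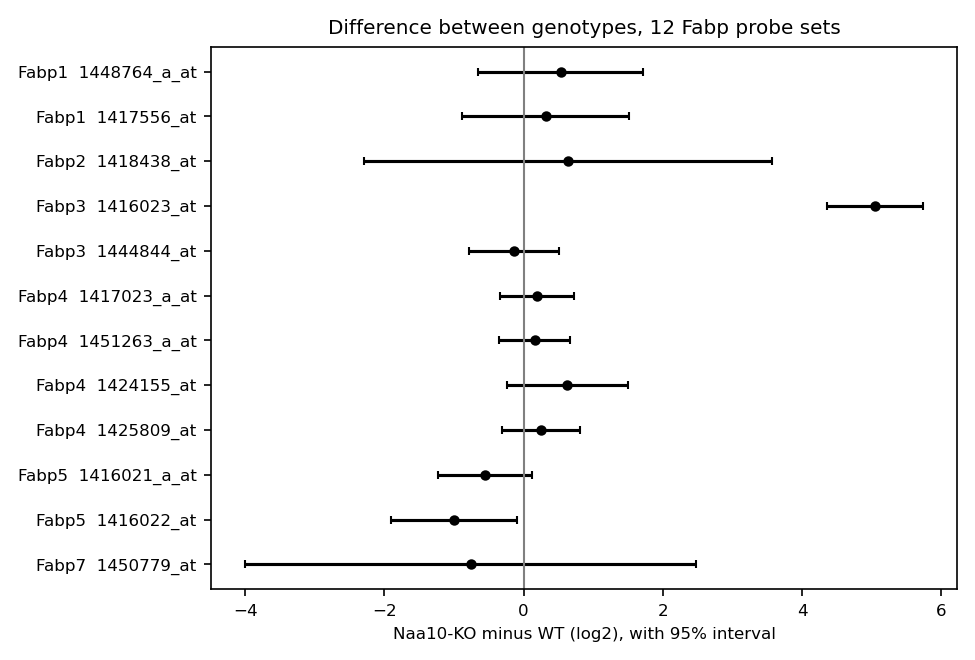
Difference Naa10-KO minus WT (horizontal axis, log2) for each Fabp probe set, with its 95% interval from limma. The interval of Fabp3 1416023_at runs from 4.36 to 5.74 and that of Fabp5 1416022_at from -1.90 to -0.09, and the other 10 intervals include 0.

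Fabp3 was measured by probe set 1416023_at, built on the RefSeq transcript of the gene, and by 1444844_at, built on an expressed sequence tag. At 1416023_at the WT arrays read 6.39, 6.29 and 5.80 and the Naa10-KO arrays 11.31, 11.46 and 10.85. All 3 knockout arrays were high and all 3 WT arrays were close to the low mark, with 4.46 log2 units between the highest WT and the lowest knockout value. The means were 6.16 ± 0.31 and 11.21 ± 0.32 (SD, n = 3), a difference of 5.05 (SE 0.27, limma adjusted p = 0.0756). The corresponding fold was 33.1, with a 95% interval of 20.5 to 53.4. The WT values sit near the low mark, and whether they lie above background is unknown. With values below the mark raised to it, the difference was 5.03.

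Whether Fabp3 passed depended on the setting. It rose, at an unchanged difference of 5.05, when each gene was represented by its brightest probe set (adjusted p = 0.0270, with 0.0879% of 18193 genes called higher and 0.0275% lower) and when low probe sets were removed (0.00273, with 0.276% of 22815 higher and 0.0307% lower). That removal kept probe sets with at least 3 arrays at the mark. WT replicate 3 read 5.80, below it, so Fabp3 was kept only with its high Naa10-KO arrays counted. The adjusted p of that fit is therefore no support for a difference. Fabp3 also rose with low values raised to the mark (0.00138, with 0.448% of 27247 higher and 0.0881% lower) and with a variance that follows the signal level and resists outliers (5.97e-07, with 0.289% of 45037 higher and 0.122% lower). When 1 array was left out, the difference stayed between 4.87 and 5.23 and the adjusted p between 0.0896 and 0.244. Of all 45037 probe sets, 36 had a larger positive difference.

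At 1444844_at the WT arrays read 6.06, 6.26 and 5.73 and the Naa10-KO arrays 6.20, 5.80 and 5.62. These values overlap fully and lie around the low mark. The difference was -0.14 (SE 0.26), with a 95% interval of -0.78 to 0.50 that does not reach the difference seen at 1416023_at. The 2 probe sets of the gene therefore gave different readings of the same RNA samples, and where 1444844_at lies within the gene was not analysed here.

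**Figure D3:**
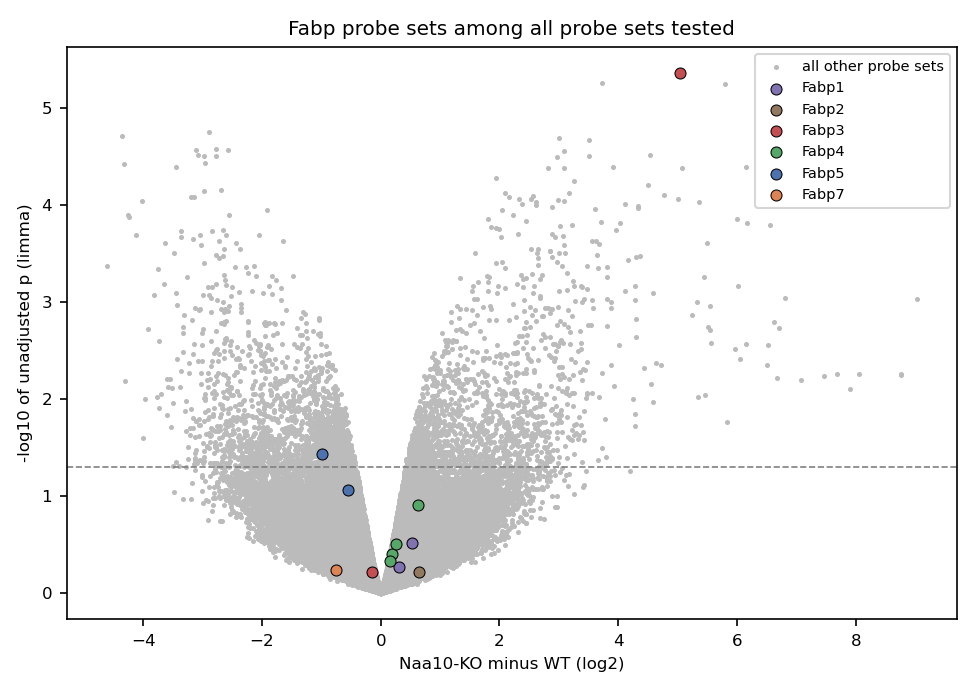
Difference Naa10-KO minus WT (horizontal axis, log2) against -log10 of the unadjusted limma p (vertical axis) for all 45037 probe sets in grey, with the 12 Fabp probe sets coloured by gene. The dashed line marks an unadjusted p of 0.05. Fabp3 1416023_at is the topmost point, and Fabp5 1416022_at is the other Fabp point over the line.

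The stretch of DNA just before the Fabp3 start site is shown because Fabp3 is the member with the large difference. RefSeq promoter entries of build GRCm38.p6 were matched for 4 of the 6 genes, Fabp1, Fabp2, Fabp3 and Fabp7. The 250 bases before the Fabp3 start, chr4:130308488-130308737 on the plus strand, are given 5′ to 3′ with motif matches in capitals.
Fabp3 upstream: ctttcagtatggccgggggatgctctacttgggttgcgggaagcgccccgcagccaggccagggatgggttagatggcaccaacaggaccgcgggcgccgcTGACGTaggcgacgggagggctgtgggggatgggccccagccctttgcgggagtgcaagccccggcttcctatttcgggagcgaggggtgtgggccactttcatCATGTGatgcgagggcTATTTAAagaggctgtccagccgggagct
From left to right the capitals mark TGACGT, the core of the cyclic AMP response element, then CATGTG, a match to the E-box CANNTG bound by helix-loop-helix factors, then TATTTAA, a variant of the TATA box. Counted from the base just before the start site, they begin 149, 45 and 29 bases upstream. Motifs were searched on both strands in the 250 upstream bases and were chosen with the Fabp3 sequence in view. TGACGT was present in 6.47% of 32851 promoter entries of this length, CANNTG in 66.2% and TATTTAA in 4.18%. Fabp1, Fabp2 and Fabp7 had no TGACGT and no TATTTAA, whereas CANNTG had 1 match before Fabp2, 2 before Fabp7 and none before Fabp1. The common TATA box TATAAA, found in 12.4% of entries, had 1 match before Fabp1 and none before Fabp3. The nuclear receptor half-site AGGTCA, found in 14.0%, had 2 matches before Fabp1, 1 before Fabp7 and none before Fabp3. Such matches describe letters in the window and were not tested for binding.

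Fabp3 is made by skeletal muscle as well as by brown fat, and most markers of both had higher means on the Naa10-KO arrays. In the main limma fit, 0 of 21 muscle and 0 of 13 brown and beige markers passed the threshold. With the variance that follows the signal level and resists outliers, 7 of the 21 and 5 of the 13 were called higher and 0 lower. In that fit 0.289% of all probe sets were called higher. Of 21 skeletal muscle markers, all measured, 21 had higher means in Naa10-KO, 19 of them without overlap (against 8.09% of all probe sets), with a median difference of 4.29. Their summed linear signal was 8665 to 23741 on WT arrays and 130509 to 166759 on Naa10-KO arrays. Markers of every list were read at the brightest probe set of each gene over all 6 arrays, so high Naa10-KO arrays weighed on that choice. None of the 21 lay below the low mark on all arrays, but their WT levels differed. Neb read 2.81 to 5.05 in WT and reached the mark only on Naa10-KO arrays, whereas Pvalb read 9.29 to 10.28 in WT. The defining genes Ckm, the muscle creatine kinase, and Mb, myoglobin, read 4.71 to 9.25 and 5.07 to 7.77 in WT against 12.58 to 13.54 and 10.77 to 12.09 in Naa10-KO. Markers of heart and slow muscle, tissues rich in Fabp3, were mostly at low signal. Of these 11, 8 lay below the low mark on all arrays, 5 means were higher and 6 lower, and the summed signal was 171 to 325 in WT and 239 to 324 in Naa10-KO. In bulk tissue, fewer cells of a type and less RNA per cell cannot be told apart.

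Of 13 brown and beige adipocyte markers, 10 had higher means in Naa10-KO, 6 of them without overlap (against 8.09% of all probe sets), with a median difference of 0.94 and 2 markers below the low mark on all arrays. Their summed signal was 4624 to 7770 in WT and 14071 to 19993 in Naa10-KO. The largest part of that sum on every array came from 1 gene, Cox8b, which read 11.52 to 12.38 in WT and 12.91 to 13.31 in Naa10-KO. Ucp1, the uncoupling protein that makes heat, read 4.75, 4.01 and 2.60 in WT and 9.56, 10.75 and 9.55 in Naa10-KO (limma adjusted p = 0.109). All 3 WT values of Ucp1 lie below the low mark. The 3 markers with lower means in Naa10-KO were Dio2 (-0.97), Tmem26 (-0.21) and Prdm16 (-0.12), each with overlapping groups.

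Within the WT group the lists and Fabp3 were ordered differently. WT replicate 3 had the highest skeletal muscle mean, 8.26 against 5.20 and 5.72 on replicates 1 and 2, and the lowest Fabp3 signal, 5.80. The brown and beige mean was also lowest there, at 6.27 against 6.45 and 6.61, as was Ucp1 at 2.60. In WT, Fabp3 was highest on replicate 1, at 6.39, and the brown and beige mean on replicate 2, at 6.61. The WT values of Fabp3 lie around the low mark and those of Ucp1 below it, so their order may not reflect RNA levels. Among Naa10-KO arrays, Fabp3, Ucp1 and the brown and beige mean were each highest on replicate 2, at 11.46, 10.75 and 8.18, where the muscle mean was lowest, at 10.91. With 3 arrays a genotype these are values only. The part of muscle RNA and of brown or beige adipocytes in the Fabp3 difference was not tested.

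**Figure D4:**
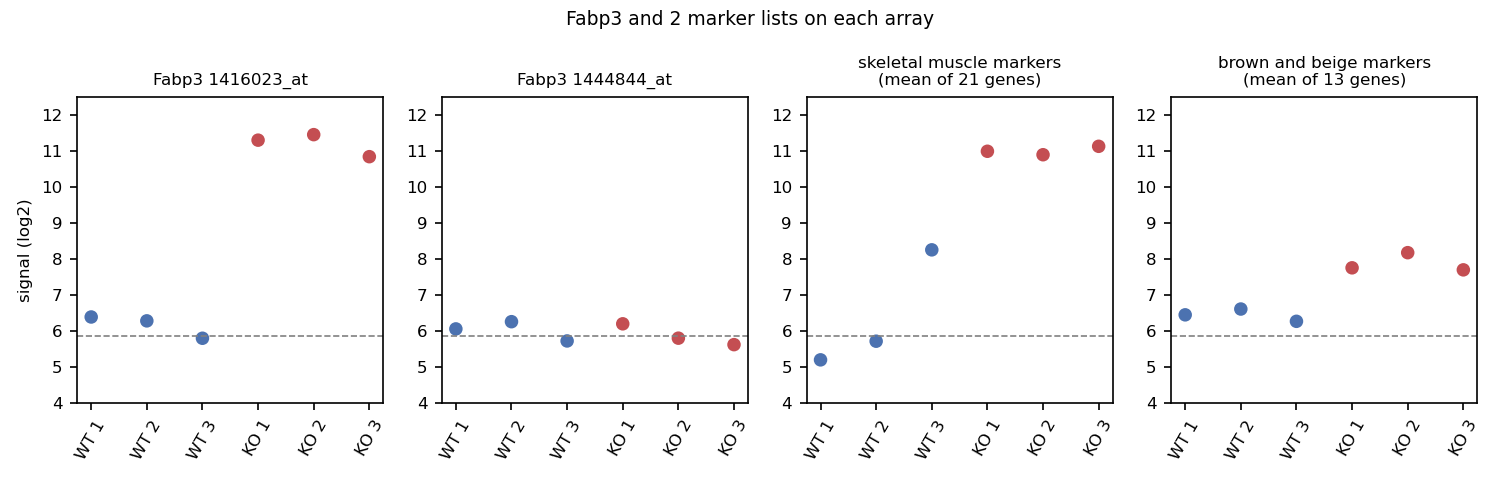
Log2 signal (vertical axis) on each of the 3 WT (blue) and 3 Naa10-KO (KO, red) arrays for both Fabp3 probe sets, for the mean of 21 skeletal muscle markers and for the mean of 13 brown and beige markers. Dashed lines are the median of all probe sets, 5.86. WT replicate 3 has the highest muscle mean of the WT arrays, 8.26, and the lowest Fabp3 signal at 1416023_at, 5.80. The WT values of Fabp3 lie around the dashed line, so their order may not reflect RNA levels.

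The profiles most like that of Fabp3 over the 6 arrays were found among 19297 probe sets of other single genes whose mean reached the low mark, by the root mean square difference after each profile was centred on its mean. The 5 nearest genes were Sh3bgr at 0.47, Ampd1, the muscle AMP deaminase, at 0.77, Ucp1 at 0.78, Pvalb, the calcium buffer parvalbumin of fast muscle, at 0.80, and Rpl3l, a ribosomal protein made in striated muscle, at 0.88. Their differences between genotypes lay between 3.51 for Rpl3l and 6.17 for Ucp1. Profiles were matched to one with a large difference, so these differences follow from the choice and are no support for that of Fabp3. Sh3bgr, Ampd1, Ucp1 and Rpl3l were below the low mark on all 3 WT arrays. Their means reached it only through their high Naa10-KO arrays. Sh3bgr, the nearest, read 4.41, 4.97 and 3.24 in WT and 9.01, 9.15 and 9.46 in Naa10-KO. Its WT replicate 3 was the lowest, as in Fabp3, which follows from its choice as a near profile.

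Fabp4, the adipocyte carrier also called aP2, was bright on every array. The brightest probe set, 1417023_a_at, read 15.81, 15.72 and 16.09 in WT and 16.22, 16.13 and 15.85 in Naa10-KO. The groups overlap, with WT replicate 3 and Naa10-KO replicates 1 and 2 above the other 3 arrays. The means were 15.87 ± 0.20 and 16.07 ± 0.19 (SD, n = 3), a difference of 0.19 (SE 0.21, limma adjusted p = 0.840). The highest value on any array was between 15.83 and 16.26, so this probe set lay at the top of the scale, where a difference can be compressed. Quantile normalization reduced the difference to 0.0052.

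Dimmer probe sets of Fabp4 were further from that limit. Probe set 1451263_a_at read 14.95, 14.78 and 15.04 in WT and 14.96, 14.96 and 15.32 in Naa10-KO, a difference of 0.16 (SE 0.20). Probe set 1424155_at read 11.44, 10.96 and 10.57 in WT and 12.11, 11.29 and 11.46 in Naa10-KO, a difference of 0.63 (SE 0.34, adjusted p = 0.721). Probe set 1425809_at read 9.77, 9.23 and 9.63 in WT and 9.92, 9.82 and 9.63 in Naa10-KO, a difference of 0.25 (SE 0.22). At all 4 probe sets the Naa10-KO mean was the higher one and the groups overlapped. The 95% intervals reached down to -0.35 at 1451263_a_at and up to 1.49 at 1424155_at. In fold, the interval of 1424155_at was 0.85 to 2.82 and that of 1425809_at 0.80 to 1.76, so these arrays leave room for a change of Fabp4 RNA of that size. Single arrays weighed on these values. The difference at 1424155_at was 0.38 without Naa10-KO replicate 1, that at 1451263_a_at was 0.04 without Naa10-KO replicate 3 and 0.08 without WT replicate 2, and that at 1425809_at was 0.09 without WT replicate 2.

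White adipocyte markers gave the setting for Fabp4. Of 9 measured of 11, 4 means were higher and 5 lower in Naa10-KO, with a median difference of -0.13 and no marker below the low mark on all arrays. Their summed signal was 202473 to 259263 in WT and 216951 to 243856 in Naa10-KO. Capillary endothelium also makes Fabp4 and Fabp5. Of its 10 markers, 5 means were higher and 5 lower, the median difference was -0.02 and 1 was below the low mark on all arrays, and the summed signal was 8046 to 11129 in WT and 8931 to 9726 in Naa10-KO. Pecam1, a defining endothelial adhesion protein, read 7.56 to 7.59 in WT and 7.81 to 7.95 in Naa10-KO. The 5 endothelial markers with lower means were Cldn5 (-0.53), Aqp1 (-0.32), Tie1 (-0.13), Esam (-0.11) and Cdh5 (-0.11).

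The profiles nearest to that of Fabp4 were those of Ghr, the growth hormone receptor (root mean square difference 0.024), Gsn, the actin-severing protein gelsolin (0.033), Usp7, a deubiquitinase (0.035), Use1 (0.037) and Fth1, the ferritin heavy chain (0.037). Their differences between genotypes lay between 0.16 and 0.22, and each was also higher on WT replicate 3 and Naa10-KO replicates 1 and 2 than on the other arrays. Both traits follow from their choice as near profiles. All 5 matches came from probe sets with the suffix s_at or x_at, which by the maker's naming can read more than one transcript.

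Fabp5 was high in both genotypes, with lower means in Naa10-KO. At 1416021_a_at the WT arrays read 14.99, 14.87 and 14.82 and the Naa10-KO arrays 13.86, 14.48 and 14.66. The groups do not overlap, but only 0.16 separates the lowest WT from the highest knockout value, and the knockout arrays spread over 0.80 against 0.17 in WT. The means were 14.89 ± 0.09 and 14.33 ± 0.42 (SD, n = 3), a difference of -0.56 (SE 0.27, limma adjusted p = 0.704), with a 95% interval of -1.23 to 0.11. At 1416022_at the WT arrays read 13.58, 13.56 and 12.96 and the Naa10-KO arrays 11.77, 12.53 and 12.83. Here too the groups were apart, by 0.14, beside 7.82% of all probe sets that were lower without overlap. The means were 13.37 ± 0.35 and 12.37 ± 0.55 (SD, n = 3), so the WT mean was 1.99-fold higher (log2 difference -0.99, SE 0.36, adjusted p = 0.657).

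Naa10-KO replicate 1 had the lowest Fabp5 signal at both probe sets. Without that array the differences were -0.32 at 1416021_a_at and -0.69 at 1416022_at. On the same array the control probe set for the 3′ end of Gapdh exceeded that for the 5′ end by 0.55 log2 units, against -0.27 to 0.01 on the other 5, a measure that goes up when RNA is degraded or incompletely copied. Its part in the Fabp5 values was not tested. Over all settings tried, Fabp5 stayed lower in Naa10-KO, with adjusted p-values of 0.232 to 0.885 at 1416021_a_at and 0.196 to 0.870 at 1416022_at.

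Other cells that make Fabp5 were followed by their markers. Of 12 macrophage markers, 8 means were higher and 4 lower in Naa10-KO, with a median difference of 0.07 and none below the low mark on all arrays. Their summed signal was 32273 to 36272 in WT and 33657 to 44200 in Naa10-KO. Csf1r, the receptor that macrophages need for survival, read 12.69 to 12.84 in WT and 12.73 to 12.86 in Naa10-KO. Trem2, a lipid receptor of macrophages in obese fat that was picked after its values were seen, had the smallest unadjusted p of the list and was its only marker without overlap between genotypes, 1 of 12 beside 7.82% of all probe sets in that direction. It read 6.30, 7.16 and 7.21 in WT and 2.77, 4.39 and 5.10 in Naa10-KO, where all 3 values lie below the low mark (difference -2.80, SE 0.66, limma adjusted p = 0.456). The part of macrophages in the Fabp5 values was not tested. Of 12 skin and epithelium markers, 7 lay below the low mark on all arrays, among them Krt5 and Krt14, the keratins of basal epidermis. For that list 4 means were higher and 8 lower, the median difference was -0.16, and the summed signal was 754 to 783 in WT and 711 to 962 in Naa10-KO. The largest part of that sum came from another keratin, Krt10. It lay above the low mark on all 6 arrays, at 8.47 to 8.90 in WT and 8.69 to 9.22 in Naa10-KO.

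The profiles nearest to that of Fabp5 were those of Rbp4, a secreted retinol carrier (root mean square difference 0.019), H2ac19, a histone (0.034), H2-K1, a class I histocompatibility protein (0.051), Rgs5, a pericyte regulator of G proteins (0.054), and Serpinh1, a collagen chaperone (0.057). Rbp4 read 13.91, 13.77 and 13.72 in WT and 12.77, 13.42 and 13.61 in Naa10-KO. In all 5, as in Fabp5, Naa10-KO replicate 1 was the lowest of the 6 arrays, which follows from their choice as near profiles.

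Fabp1, the liver carrier, lay near or below the low mark. Probe set 1448764_a_at read 4.56, 5.06 and 4.52 in WT and 5.56, 4.29 and 5.88 in Naa10-KO, a difference of 0.53 (SE 0.47). That difference was 0.21 without Naa10-KO replicate 3, 1.01 without Naa10-KO replicate 2 and 0.0098 with values below the mark raised to it. The knockout arrays span 1.59 and enclose the WT values, and 1 of the 6 arrays was above the mark. Probe set 1417556_at was below the mark on all 6 arrays and differed by 0.32 (SE 0.48). Fabp2, the intestinal carrier, read 1.56, 0.85 and 2.55 in WT and 0.11, 4.44 and 2.32 in Naa10-KO, a spread within genotype that exceeds the difference of 0.64 (SE 1.17). Markers of liver and intestine differed among themselves: 6 of the 8 measured of 10 were below the low mark on all arrays, whereas Alb, albumin, read 8.33 to 9.79 in WT and 9.18 to 9.97 in Naa10-KO. For that list 4 means were higher and 4 lower, the median difference was 0.15, and the summed signal was 12367 to 28326 in WT and 22027 to 28338 in Naa10-KO. Nearly all of that sum came from 1 gene, Cyp2e1, a cytochrome P450 that fat also makes, which read 13.55 to 14.74 in WT and 14.38 to 14.73 in Naa10-KO.

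Fabp7, the carrier of radial glia that Schwann cells can also make, read 5.68, 4.58 and 1.44 in WT and 2.23, 2.50 and 4.69 in Naa10-KO. The groups overlap and all 6 values lie below the low mark, with a difference of -0.76 (SE 1.29). Of 7 nerve and Schwann cell markers measured of 10, 4 means were higher and 3 lower, 2 were below the low mark on all arrays, the median difference was 0.64, and the summed signal was 6851 to 7271 in WT and 5776 to 7099 in Naa10-KO. Sox10, the defining regulator of Schwann cells, read 3.72 to 6.04 in WT and 6.00 to 6.87 in Naa10-KO. The 3 markers with lower means were S100b (-1.41, SE 0.54), Ncam1 (-0.92, SE 1.31) and Pmp22 (-0.11, SE 0.20).

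Fabp4 and Fabp5 lie in a cluster of related genes on one mouse chromosome. In the RefSeq gene table of GRCm38.p6 the protein-coding genes from Fabp5 onward are, in order, Fabp5, Pmp2, Fabp9, Fabp4 and Fabp12. Pmp2, the myelin carrier, and Fabp9, the testis carrier, were below the low mark on all 6 arrays at each of their probe sets. Pmp2 differed by 1.30 (SE 1.15) and Fabp9 by -2.78 (SE 1.43) at its brighter probe set and by 0.03 at the other. Fabp12 read 7.18, 6.76 and 7.10 in WT and 5.64, 7.34 and 7.09 in Naa10-KO, a difference of -0.33 (SE 0.49). Of the 3 genes of the cluster with signal above the mark on most arrays, Fabp4 thus had higher means in Naa10-KO, Fabp5 and Fabp12 lower ones, and none passed the threshold.

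Other genes of fatty acid handling were read from 5 lists, with 1 probe set, the brightest, for each gene. Of their 47 genes measured, 0 passed in either direction in limma (0% of all probe sets called). Among the other relatives of the carrier family, 8 measured of 9, 3 means were higher and 5 lower, the median difference was -0.21 and 6 were below the low mark on all arrays. The smallest unadjusted p-values were those of Rbp2, an intestinal retinol carrier (difference -0.83), Fabp9 and Pmp2. Rbp7, a retinol carrier of fat and its vessels, was bright, with a WT mean of 11.70 ± 0.58 and a Naa10-KO mean of 12.15 ± 0.51 (SD, n = 3).

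Among 15 measured of 17 genes of uptake and activation, which bring fatty acids into the cell and couple them to coenzyme A, 10 means were higher and 5 lower, with a median difference of 0.08. Slc27a2, a transporter and acyl-CoA synthetase, read 1.77, 3.12 and 1.51 in WT and 7.09, 8.69 and 7.12 in Naa10-KO, a difference of 5.50 (SE 0.65, limma adjusted p = 0.122). All 3 WT values lie below the low mark and all 3 knockout values above it. It rose with the variance that follows the signal level (adjusted p = 0.00290). With low probe sets removed its adjusted p was 0.0246, but it entered that fit only through its 3 knockout arrays, so this value is no support for a difference. Acsl6, an acyl-CoA synthetase of brain and muscle, differed by 3.73 (SE 0.83), with WT values of 1.08 to 4.20 below the mark, and Acsl3, a synthetase of lipid droplets, by 0.65 (SE 0.24). Genes of this list that are bright in fat differed little. WT and Naa10-KO means of Cd36, the fatty acid translocase, were 15.64 ± 0.13 and 15.70 ± 0.10, and those of Lpl, lipoprotein lipase, were 15.47 ± 0.16 and 15.26 ± 0.12 (SD, n = 3).

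**Figure D5:**
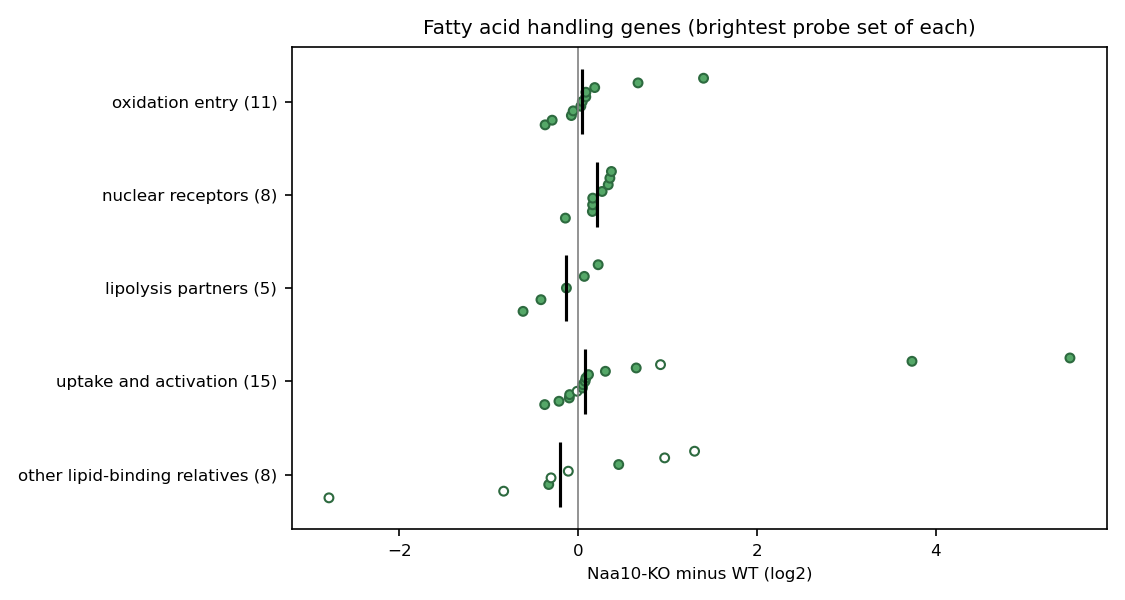
Difference Naa10-KO minus WT (horizontal axis, log2) of each measured gene in 5 lists of fatty acid handling, with the number of genes in brackets and the list median as a black bar. Open circles are genes below the low mark on all 6 arrays. Slc27a2 at 5.50 and Acsl6 at 3.73 stand apart at the right of uptake and activation, and the list medians lie between -0.21 and 0.22.

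Lipolysis partners, the enzymes and regulators that release the fatty acids that Fabp4 carries, had 2 means higher and 3 lower of 5 measured of 6, with a median difference of -0.13. Mgll, the monoglyceride lipase, differed by -0.61 (SE 0.20, limma adjusted p = 0.627), Lipe, hormone-sensitive lipase, by -0.41 (SE 0.32) and G0s2, an inhibitor of triglyceride lipase, by 0.23 (SE 0.22). Receptors of the PPAR and RXR families, to which the carriers can deliver ligand, and the Pgc1 coactivators had 7 means higher and 1 lower of 8, with a median of 0.22. Pparg, the adipocyte receptor whose target Fabp4 is, had a WT mean of 11.45 ± 0.19 and a Naa10-KO mean of 11.61 ± 0.12 (SD, n = 3). Ppara differed by 0.34 (SE 0.28) and Rxrg by 0.36 (SE 0.29). At the entry to oxidation, 7 means were higher and 4 lower of 11 measured of 12, with a median of 0.05. Acot1 and Acot2, acyl-CoA thioesterases of cytosol and mitochondria, differed by 1.40 (SE 0.40, adjusted p = 0.581) and 0.67 (SE 0.31), and Hadha, a subunit of the trifunctional protein, by -0.29 (SE 0.23).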

How the data were processed

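RNA of inguinal fat from 3 WT and 3 Naa10-KO mice was measured on 1 array each from 3 µg of total RNA, per the labels' protocols. The values deposited by the authors are log2 signals of 45101 probe sets. Back on the linear scale, every array had the same mean of 500 once its top and bottom 2% were trimmed, so arrays had been scaled to 1 level; by what software, no source used here says. Medians of the arrays were 5.78 to 5.96. The 64 control probe sets were left out of tests. Names came from a GEO platform annotation, and all 12 member probe sets matched a RefSeq gene by Entrez identifier with the same symbol. The number of arrays limits the precision.

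The 2 genotypes were tested in R 4.3.3 with limma 3.58.1 (lmFit and eBayes, 2-sided, no term other than genotype), with Benjamini-Hochberg adjustment over all probe sets. Intervals are 95% intervals of the moderated test. Steps were tested on simulated data. The members and lists were chosen with earlier results of these data known. Named genes are the members, the 5 nearest profiles of Fabp3, Fabp4 and Fabp5, the 3 smallest unadjusted p-values of each fatty acid handling list with any gene past the threshold, and up to 3 defining markers of each cell type list. Others (Rbp7, Fabp12, Cd36, Lpl, Trem2, Cyp2e1 and the Gapdh controls) were chosen after their values were seen. So were the further markers Dio2, Tmem26, Prdm16, Cox8b, Neb, Krt10, S100b, Ncam1, Pmp22, Cldn5, Aqp1, Tie1, Esam and Cdh5. Alternatives were quantile normalization, median centring, a filter (the median of all values reached on at least 3 arrays), a floor at that median, 1 probe set per gene, trend and robust eBayes, array weights, an unmoderated test, a block for the replicate number, leaving out each array in turn and a threshold of 0.1. Arrays correlated at 0.903 to 0.917, so none was a copy of another.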

Additional observations from a re-analysis of the deposited data

How the results depend on the processing

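Fabp3 1416023_at kept its direction in every alternative. It passed with low probe sets filtered out (5.05), the floor (5.03), 1 probe set per gene (5.05), trend and robust eBayes (5.05) and an adjusted p of 0.1 (5.05), and it did not pass with quantile normalization, median centring, array weights, the unmoderated test or without any 1 array (4.87 to 5.23). Fabp3 met the filter only with its high Naa10-KO arrays counted, so that pass is no support for a difference. Member counts called higher were 1 in each of the 5 alternatives in which it passed and 0 otherwise, and 0 members were called lower in all alternatives. Over all probe sets, 63 were higher and 7 lower with the filter, 122 and 24 with the floor, 16 and 5 with 1 probe set per gene, 130 and 55 with trend and robust eBayes, and 38 and 19 at an adjusted p of 0.1. The unmoderated test called 0 higher and 1 lower. With 1 array left out, 0 to 1 were called higher, the 1 without WT replicate 3, and 0 lower. The fatty acid handling lists had 1 call, Slc27a2, with trend and robust eBayes and with the filter, which it passed only through its 3 high Naa10-KO arrays.

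Signs turned at low signal only, for Fabp1 1417556_at without WT replicate 1 (-0.048, range over arrays left out -0.048 to 0.69), for Fabp2 without Naa10-KO replicate 2 (-0.44, range -0.44 to 1.73) and for Fabp7 without WT replicate 1 (0.13, range -1.99 to 0.13). The cause was not tested. Probe sets below the low mark on all arrays could not be fitted with the floor, and 9 of the 12 remained. The filter kept 8.

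The labels number the arrays 1 to 3 in each genotype without tying a number to a litter or day. Deviations of same-numbered arrays from their group means, over all probe sets, correlated at 0.0031, 1.6e-04 and -0.019. These values gave no sign of pairing by number. They cannot settle it, because many probe sets lie at low signal and each genotype has 3 arrays. With the replicate number as a block, the Fabp3 difference was 5.05 (limma adjusted p = 0.537) and 0 probe sets were called, with 2 residual degrees of freedom.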
